A study of Mus musculus with 5 samples.

Results

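The Hox genes measured here were the probe sets whose platform annotation gave 1 gene symbol made of Hox, a cluster letter from a to d and a number. The rule found 38 of the 22626 probe sets tested, which stood for 32 of 12393 named genes, with the brightest probe set by the 5-array mean taken for each gene. Of these genes 31 were protein-coding genes, out of 39 Hox genes in RefSeq, and 1 was the antisense transcript Hoxa11os. The others were not analysed here. The samples were 3 tumour arrays (tumours 16, 18 and 2) from the intestine of Apc1638N mice and 2 arrays (wild types 36 and 62) from normal intestinal epithelium of wild-type mice. All animals were C57Bl6/J males of 8 months kept under the same specific-pathogen-free conditions with free feeding. Apc1638N is a truncating allele of Apc, the scaffold that restrains Wnt signalling, carried through the germline, so it is not limited to the epithelium. Every tumour came from Apc1638N mice and all normal epithelium from wild-type mice, so tumour state and genotype cannot be told apart here. Cells were taken by laser capture microdissection, and the labels name neither the segment of intestine sampled nor whether every array came from its own animal, so the p-values describe sample-to-sample spread that may be partly technical.

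Hox genes encode homeodomain transcription factors that lie in 4 clusters, Hoxa to Hoxd. Within a cluster the genes are numbered in order, and the same number in different clusters marks paralogs derived from 1 ancestral gene. In the embryo low numbers are used towards the head and high numbers towards the tail, and in the developing gut the clusters pattern the tube from front to back, in mesenchyme as well as in epithelium. In adults a part of this regional expression is kept, and connective tissue cells are known for carrying much of it.

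Among the Hox genes the differences lay in the middle of the Hoxa cluster. Hoxa9 and Hoxa5 rose, Hoxa7 lay just outside the threshold, and none of the 22 measured genes of the other clusters differed by as much as 0.2 on the log2 scale. Over all members 2 of 32 genes (Hoxa5 and Hoxa9) were higher at a limma adjusted p of 0.05, where 11.3% of all genes tested were higher. None was lower at that threshold in limma, where 10.5% of all genes were, and 2 were lower at an unadjusted p under 0.05 (Hoxd12 and Hoxd13). Both Hoxa genes differed by at least 1 on the log2 scale, where 3.45% of all genes tested were both called higher and that different. By probe set, 2 of 38 were higher, against 9.58% of all probe sets, and 0 lower in limma (2 at an unadjusted p under 0.05), against 8.72%. The share of Hox genes called higher was thus not above that of genes in general. The median change over the 31 protein-coding genes was -0.0040, against 0.0040 over all genes tested.

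**Figure D1:**
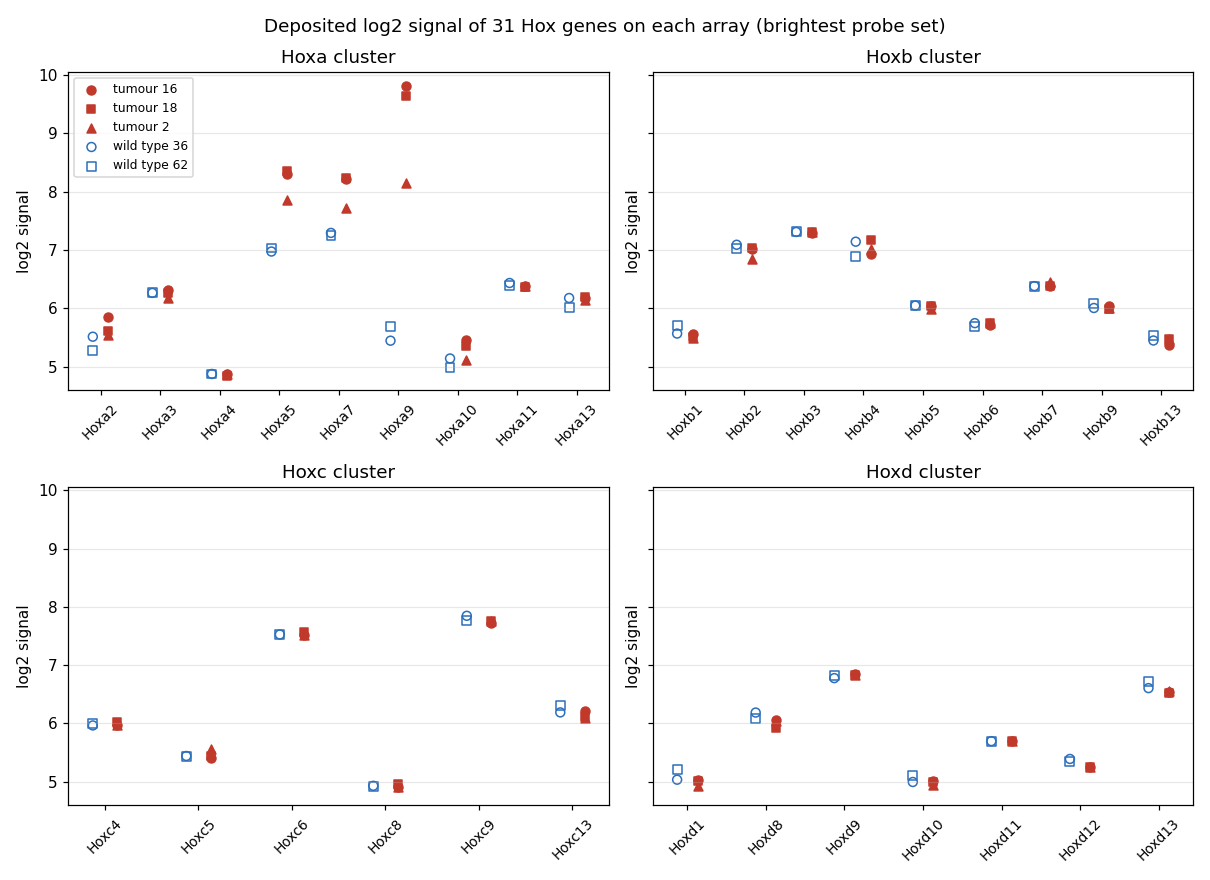
Deposited log2 signal (vertical axis) of the 31 protein-coding Hox genes, by cluster and in order of paralog number (horizontal axis), with filled red symbols for the 3 tumour arrays and open blue symbols for the 2 wild-type arrays. Each gene is shown by its brightest probe set. Hoxa5, Hoxa7 and Hoxa9 stand apart, with every tumour above both wild-type arrays and tumour 2 the lowest tumour. In Hoxb, Hoxc and Hoxd the arrays nearly coincide.

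Hoxa9, a factor of the trunk and limb that is also known for its part in blood stem cells and leukaemia, had the largest difference. Its brightest probe set (1455626_at) had a log2 signal of 9.81 in tumour 16, 9.64 in tumour 18 and 8.14 in tumour 2, against 5.44 in wild type 36 and 5.68 in wild type 62. The groups did not overlap, and tumours 16 and 18 lay well above tumour 2. The tumour mean was 9.20 ± 0.92 (SD, n = 3) and the wild-type mean 5.56 ± 0.17 (SD, n = 2), a signal difference of 3.63 (SE 0.58, 95% confidence interval 2.05 to 5.21) with a limma adjusted p of 0.0226. The wild-type signals lay at percentiles 11.2 and 15.9 of their arrays, where a signal may not reflect the transcript. The difference is therefore one of signals, its size for the transcript is not known, and no fold is given.

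The size of the Hoxa9 difference rested on the choice of probe set. The other probe set of the gene (1421579_at) read 7.93, 7.72 and 7.72 in tumours 16, 18 and 2, and 7.60 and 7.66 in wild types 36 and 62. Its groups did not overlap either, but the difference was 0.16 (SE 0.08, 95% confidence interval -0.07 to 0.38) and did not pass, with a limma adjusted p of 0.289 over probe sets. The means over the 5 arrays by which the representative was chosen were 7.74 and 7.72, a gap of 0.019. Had the highest wild-type mean decided, a setting added after the data were seen, 1421579_at would have stood for the gene and Hoxa9 would not have been called. Where the probe sets lie in the transcript was not analysed here.

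Hoxa5, which patterns the lung and foregut and has been described in the colon as a factor that promotes differentiation of epithelial stem cells, was also higher. Its only probe set had a log2 signal of 8.30 in tumour 16, 8.36 in tumour 18 and 7.85 in tumour 2, against 6.97 in wild type 36 and 7.03 in wild type 62. All tumours lay above both wild-type arrays, with tumour 2 again the lowest tumour. The means were 8.17 ± 0.28 (SD, n = 3) and 7.003 ± 0.04 (SD, n = 2). Hoxa5 thus rose by 1.17 (SE 0.18, 95% confidence interval 0.68 to 1.66), a 2.25-fold difference in signal with a limma adjusted p of 0.0207. As no presence calls were used, a fold of signals may differ from that of the transcript.

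Hoxa7, the neighbour between these genes together with Hoxa6, which was not analysed here, also had its lowest tumour signal in tumour 2. It read 8.22 in tumour 16, 8.23 in tumour 18 and 7.72 in tumour 2, against 7.29 in wild type 36 and 7.24 in wild type 62. The groups did not overlap and the difference was 0.79 (SE 0.19, 95% confidence interval 0.29 to 1.29), but the limma adjusted p of 0.0520 missed the threshold. It passed under 6 of the 8 other settings that kept all arrays, with limma adjusted p-values between 0.0235 and 0.0545 over the 8. Its difference ran only from 0.76 to 0.79 over the 8. In each of those 6 settings calls over all genes were also more frequent than the 2695 of 12393 of the main fit. The passes are therefore no separate support for Hoxa7.

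The calls depended on single arrays. Hoxa5 and Hoxa9 lost their calls without tumour 16 (limma adjusted p = 0.0881 and 0.0848), tumour 18 (0.0719 and 0.0849), wild type 36 (0.121 and 0.131) or wild type 62 (0.119 and 0.125). Without tumour 2, Hoxa5, Hoxa7 and Hoxa9 were all called, at 0.00941, 0.00946 and 0.00941. The differences stayed between 1.07 and 1.33 for Hoxa5, between 0.70 and 0.96 for Hoxa7 and between 3.33 and 4.16 for Hoxa9. The fit without wild type 62 called 0 of all 12393 genes, so no call named in the other gene lists stands without that array either.

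The 250 bases before the RefSeq start of each of these 3 genes are shown because these genes differed most between the groups while their promoters differ widely in CpG content. They are taken from assembly GRCm38.p6, read 5′ to 3′ along the gene, with every CpG in capitals.
Hoxa5, chr6:52204588-52204837, minus strand: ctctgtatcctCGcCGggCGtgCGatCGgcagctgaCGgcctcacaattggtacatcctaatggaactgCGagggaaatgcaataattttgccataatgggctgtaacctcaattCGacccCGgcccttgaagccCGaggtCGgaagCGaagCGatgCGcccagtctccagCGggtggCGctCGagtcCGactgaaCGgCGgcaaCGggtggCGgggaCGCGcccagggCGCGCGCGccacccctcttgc
Hoxa7, chr6:52218574-52218823, minus strand: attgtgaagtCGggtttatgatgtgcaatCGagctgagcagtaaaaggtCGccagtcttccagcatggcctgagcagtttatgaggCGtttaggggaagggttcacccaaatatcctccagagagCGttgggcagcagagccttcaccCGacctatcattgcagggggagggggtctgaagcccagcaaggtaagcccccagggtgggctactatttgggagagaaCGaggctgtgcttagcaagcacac
Hoxa9, chr6:52227371-52227620, minus strand: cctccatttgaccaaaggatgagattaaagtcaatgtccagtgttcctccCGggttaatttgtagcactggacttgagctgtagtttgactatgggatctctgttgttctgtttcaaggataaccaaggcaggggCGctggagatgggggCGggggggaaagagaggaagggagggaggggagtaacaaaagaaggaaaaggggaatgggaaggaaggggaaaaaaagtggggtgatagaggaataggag
These stretches held 28, 7 and 3 CpG pairs for Hoxa5, Hoxa7 and Hoxa9. In the windows of 300 bases that also take in 50 bases after the start, the counts were 29, 9 and 4, against a median of 7 over 32851 promoters of all genes in the same table. The table held 20 promoters of 18 measured Hox genes, and their median was 14.5. On either strand the letters CTTTGAT, bound by the TCF and LEF factors of the Wnt pathway, were found in 0 of 9 promoters of 8 measured Hoxa genes and in 3.73% of all promoters. The letters TTTATG, the core of the motif of the CDX homeodomain factors of the gut, were found in the promoter of Hoxa7 alone among the Hoxa genes, at 2 places that begin 236 and 173 bases before its start, and in 11.9% of all promoters. A match is a description of the letters, and their absence says nothing beyond this window.

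The other members of the Hoxa cluster differed less. Hoxa2, a gene of the hindbrain and pharyngeal arches, read 5.85, 5.61 and 5.54 in tumours 16, 18 and 2, and 5.51 and 5.28 in wild types 36 and 62. Its difference of 0.27 (SE 0.13) did not pass (limma adjusted p = 0.226), although the groups did not overlap. Hoxa10, known for the uterus and the reproductive tract, read 5.46, 5.36 and 5.11 against 5.14 and 4.98, and its difference of 0.25 (SE 0.12) did not pass (limma adjusted p = 0.242). The groups of Hoxa10 overlapped through tumour 2, which was the lowest tumour in both genes. Hoxa3, of the pharyngeal organs, gave different answers by probe set. The brighter one differed by -0.02 (SE 0.05), and the other (1427433_s_at) read 6.43, 6.19 and 5.98 in tumours 16, 18 and 2 against 5.78 and 5.95, a difference of 0.34 (SE 0.15) that did not pass. Hoxa4 differed by -0.01 and 0.0001 in its probe sets, Hoxa11 by -0.04, the hindgut and distal limb gene Hoxa13 by 0.07 and the antisense transcript Hoxa11os by 0.08, and none passed. In all, tumours lay above wild type with no overlap for 4 of 9 protein-coding Hoxa genes (Hoxa2, Hoxa5, Hoxa7 and Hoxa9), against 27.0% of all genes tested. By probe set this held for 7 of 13 with Hoxa11os included, against 25.3% of all probe sets.

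**Figure D2:**
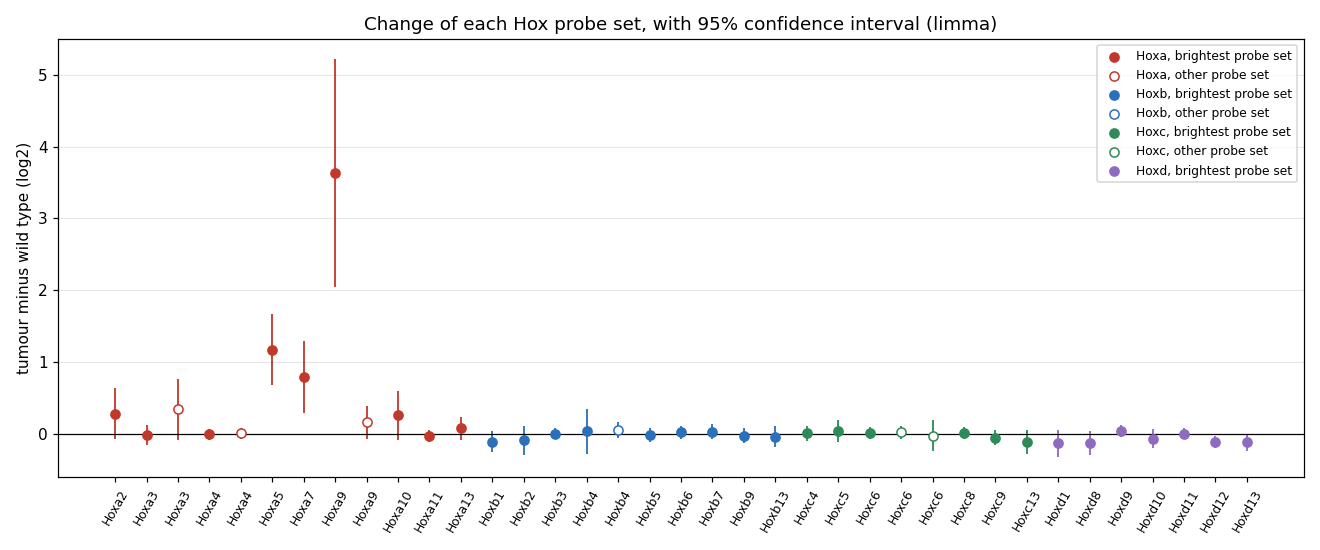
Log2 difference between tumour and wild-type means (vertical axis) for each probe set of a protein-coding Hox gene, ordered by cluster and number (horizontal axis), with limma's 95% confidence interval as a bar, filled for the brightest probe set of a gene and open for any other. The pair of Hoxa9 points lies at 3.63 and 0.16, and no interval in Hoxb, Hoxc or Hoxd reaches above 0.34.

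The order of the genes along the chromosome was read from RefSeq. Hoxa5, Hoxa7 and Hoxa9 are neighbours but for Hoxa6, with Hoxa4 on the low-numbered side and Hoxa10 on the high-numbered side. Tumour minus the wild-type mean was 1.30, 1.36 and 0.85 for Hoxa5 in tumours 16, 18 and 2, 0.95, 0.96 and 0.45 for Hoxa7, and 4.24, 4.07 and 2.58 for Hoxa9. The smaller difference in tumour 2 was thus seen in each of the 3 genes by its brightest probe set. In the other Hoxa9 probe set the differences were 0.30, 0.09 and 0.09 in tumours 16, 18 and 2. Tumour 2 was the lowest tumour in 55.8% of the 1395 genes called higher. Their median difference was 0.72, 0.77 and 0.64 in tumours 16, 18 and 2. Beside the cluster, the homeobox gene Evx1 at the Hoxa13 end differed by 0.01 (SE 0.04) and the adaptor gene Skap2 at the other end by -0.04 (SE 0.08), and neither passed. Further out, Hnrnpa2b1 differed by 0.75 with tumours above wild type and no overlap (limma adjusted p = 0.0724) and Cbx3 by 0.07 (limma adjusted p = 0.344), and neither passed. Snx10 was higher by 0.39, and Hibadh and Tax1bp1 were lower by log2 differences of -0.45 and -1.03, each with a limma adjusted p under the threshold (0.0206, 0.0390 and 0.0402). These flanking genes were taken by position alone.

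**Figure D3:**
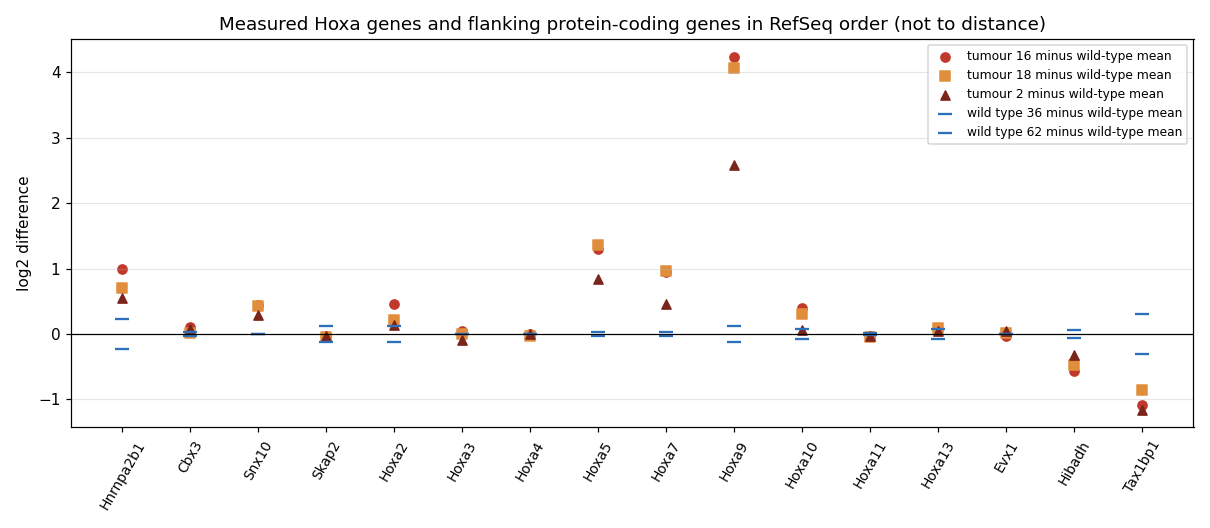
Each array minus the wild-type mean on the log2 scale (vertical axis) for the measured Hoxa genes and measured protein-coding genes on either side, in RefSeq order but not to distance (horizontal axis), with symbols for the tumours and bars for the wild-type arrays. The tumours stand above wild type at Hoxa5, Hoxa7 and Hoxa9, while Skap2 and Evx1, next to the cluster, lie near 0.

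The Hoxb cluster was flat. All 9 genes, from Hoxb1 of the hindbrain to Hoxb13 of the tail and prostate, differed by less than 0.2, with changes from -0.11 (Hoxb1) to 0.03 (Hoxb4), and 0 passed in limma, also at an unadjusted p under 0.05. The brightest, Hoxb3, read 7.30, 7.31 and 7.31 in tumours 16, 18 and 2 and 7.31 in both wild types. Hoxb4, a gene of blood stem cells, spread most, at 6.94, 7.18 and 7.02 in the tumours and 7.14 and 6.89 in the wild types, and its groups overlapped. Among the 6 genes of the Hoxc cluster the changes ran from -0.11 (Hoxc13, a gene of hair and nail) to 0.03 (Hoxc5), and 0 passed in limma, likewise at an unadjusted p under 0.05. The brightest, Hoxc9, read 7.72, 7.76 and 7.76 in tumours 16, 18 and 2 and 7.85 and 7.77 in wild types 36 and 62, a difference of -0.06 (SE 0.04).

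The Hoxd genes, which pattern limbs and the hind end of the body, differed by 0.14 or less. Of 7 genes, 5 had negative changes, 1 had a positive change and Hoxd11 had the same value of 5.70 on all 5 arrays. Tumours lay below wild type with no overlap for 4 of 7 (Hoxd1, Hoxd8, Hoxd12 and Hoxd13), against 23.7% of all genes tested. Hoxd12 read 5.25 in every tumour against 5.39 and 5.35 in wild types 36 and 62, a difference of -0.12 (SE 0.03, limma adjusted p = 0.0676). Its 3 tumour values were exactly tied, which lowers the estimated spread. Hoxd13, the gene at the end of the cluster, differed by -0.13 (SE 0.05, limma adjusted p = 0.136), Hoxd1 by -0.14 and Hoxd8 by -0.13. The brightest, Hoxd9, read 6.85, 6.82 and 6.82 in tumours 16, 18 and 2 and 6.78 and 6.82 in wild types 36 and 62. None of the 7 passed in limma, and 2 were lower at an unadjusted p under 0.05. A probe set annotated to both Hoxd3 and Hoxd4, and so not a member, differed by 0.14 (SE 0.05, limma adjusted p = 0.175 over probe sets), with tumours above wild type and no overlap. Differences of this size are smaller than the tumour SDs of Hoxa5 (0.28) and Hoxa9 (0.92), which do not describe the spread of the Hoxd probe sets. Hoxd13 itself had an SD of 0.02 in the tumours and 0.08 in wild type.

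No paralog of Hoxa5 or Hoxa9 passed the test. In paralog group 9, Hoxa9 changed by 3.63 in its brightest probe set but by 0.16 in the other, which did not pass. Hoxb9 changed by -0.03, Hoxc9 by -0.06 and Hoxd9 by 0.03. The 95% confidence intervals of these last 3 ran from -0.17 to 0.13 at their widest. The contrast of Hoxa9 with its paralogs thus rested on the choice of probe set. In group 5, Hoxa5 changed by 1.17, Hoxb5 by -0.02 and Hoxc5 by 0.03, with intervals of the latter pair within -0.12 and 0.19. In group 7, Hoxa7 differed by 0.79 and Hoxb7 by 0.02 (interval -0.08 to 0.13). Differences between paralogs were set side by side and not tested. Grouped by number, 0 of 6 genes of groups 1 to 3, 0 of 3 of group 4, 1 of 9 of groups 5 to 8, 1 of 6 of groups 9 and 10 and 0 of 7 of groups 11 to 13 were higher, against 11.3% of all genes, and 0 in any group were lower, against 10.5%. The limma counts at an unadjusted p under 0.05 were 0, 0, 2, 1 and 0 higher and 0, 0, 0, 0 and 2 lower.

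The flatness of most Hox genes has to be read with the level of their signals. Of the 22 genes outside Hoxa, 22 differed by less than 0.2 and 16 spanned less than 0.2 over all 5 arrays, against 57.4% and 34.7% of all genes tested. In 11 of these 22 at least 2 arrays of a group held exactly the same value, against 28.7% of all genes. Means over the 5 arrays ran from 4.87 to 7.77 for the 31 Hox genes. The same means ran from 4.10 to 8.02 for 26 genes restricted to other organs, such as eye, testis, heart and pituitary. Since no presence calls were used, a flat Hox signal cannot be told apart from one below detection. A change in a transcript too scarce for its probe set would not be seen here.

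Hox cofactors are homeodomain proteins of the TALE class that bind DNA together with Hox proteins or compete for similar sites. Of 10 measured genes, 2 were higher and 0 lower in limma (3 higher and 1 lower at an unadjusted p under 0.05). As in the lists that follow, these counts stand against 11.3% of all genes called higher and 10.5% called lower. Tgif2, a repressor of this class, rose by 0.79 (SE 0.12, limma adjusted p = 0.0212), and Pbx3, a direct partner of Hox proteins, by 0.27 (SE 0.05, limma adjusted p = 0.0288). Pbx3 read 7.37, 7.31 and 7.44 in tumours 16, 18 and 2 and 7.10 in both wild types. Meis1, the partner best known beside Hoxa9 in leukaemia, differed by 0.05 (SE 0.05) and did not pass. It read only 5.41 to 5.56 on the 5 arrays, whose 25th percentiles were 6.03 to 6.06. A signal that low may not reflect the transcript. The median of the cofactor list was 0.0005.

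Of 27 ParaHox and other homeobox genes with roles in the gut, 1 rose and 1 fell, namely Pitx1 (0.50, SE 0.09), a gene of the hindlimb and pituitary, and Barx2 (-0.43, SE 0.10), with a list median of -0.0027. Cdx2, the main regulator of intestinal identity and a known activator of Hox genes, read 9.58, 9.49 and 9.58 in tumours 16, 18 and 2 and 9.66 and 9.58 in wild types 36 and 62, a difference of -0.07 (SE 0.05). Cdx1 differed by 0.25 (SE 0.16), highest in tumour 16, and did not pass. Meis1, Cdx1 and Cdx2 were named for their ties to Hox genes and not by rule.

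Chromatin regulators of Hox genes were also read. Of 10 measured trithorax genes, which keep Hox genes active, 2 rose and 0 fell in limma, with a median of 0.24. At an unadjusted limma p under 0.05, 5 were higher and 0 lower. Kmt2a, the methyltransferase also called Mll, rose by 0.44 (SE 0.09, limma adjusted p = 0.0408) and the chromatin reader Psip1 by 0.68 (SE 0.11, limma adjusted p = 0.0225). Of 23 Polycomb genes, which keep Hox genes silent, 8 were higher and 3 lower at an unadjusted limma p under 0.05. Their median change was 0.17. After adjustment 5 rose and 0 fell in limma. They were the histone-binding subunits Rbbp7 (1.27, SE 0.10) and Rbbp4 (1.05, SE 0.11), which also serve other complexes, Yy1 (0.71, SE 0.10), Phc2 (0.56, SE 0.12) and Cbx2 (0.29, SE 0.05). The probe sets of Rbbp7, Rbbp4, Phc2 and Suz12 carry a suffix for targets that may be shared with other transcripts. So do the brighter Hoxa4 probe set, the less bright Hoxa3 probe set (1427433_s_at) and that of Hibadh above. The same holds for those of Cyp2b10, Slc46a1, Ces1f, Slc51a and Acta2 below. Ezh2, the methyltransferase of the complex, differed by 0.49 (SE 0.16, limma adjusted p = 0.106) and its partner Suz12 by -0.59 (SE 0.16, limma adjusted p = 0.0759), and neither passed. Ezh2 and Suz12 were named after their values were seen.

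Retinoic acid, made from vitamin A, switches on Hox genes in order of their number. Of 15 genes of its synthesis, breakdown and receptors, 3 rose and 1 fell, with a median of 0.04. The synthesis enzyme Aldh1a1 fell from 11.06 and 10.46 in wild types 36 and 62 to 6.64, 8.04 and 6.70 in tumours 16, 18 and 2, a difference of -3.64 (SE 0.53, limma adjusted p = 0.0192). The related enzyme Aldh1a3 rose by 0.75 (SE 0.14), and the receptors Rarb and Rxrb by 0.58 (SE 0.10) and 0.38 (SE 0.08).

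Genes of gut regions were compared because Hox genes differ along the gut. Of 12 proximal intestine genes 6 fell, of 12 distal small intestine genes 5 fell and of 15 colon genes 4 fell. In limma 0 of any of these lists rose. At an unadjusted limma p under 0.05, 1 was higher in each list, and 8, 6 and 4 were lower. The medians were -2.26, -0.97 and -0.11. The called proximal genes of largest change were Cyp2b10 (-4.72, SE 0.46), lactase (Lct, -4.41, SE 0.78), the folate transporter Slc46a1 (-3.17, SE 0.38) and the fructose transporter Slc2a5 (-2.32, SE 0.35). Distal genes that fell included the peptidase Enpep (-5.41, SE 0.58), Ces1f (-4.01, SE 0.34), the meprin subunit Mep1b (-3.41, SE 0.62) and the bile acid exporter subunit Slc51a (-2.72, SE 0.29), and colon genes that fell were Slc37a2 (-3.22, SE 0.23), carbonic anhydrase 4 (Car4, -2.12, SE 0.39), Slc26a3 (-2.002, SE 0.29) and Slc26a2 (-1.34, SE 0.09). Many genes of these lists belong to absorptive enterocytes of any segment. The labels do not name the segment from which each array came. Its part in the Hoxa values was not tested and cannot be told apart from a difference between the groups.

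Markers of connective tissue were read beside the Hoxa genes. Of 22 fibroblast and smooth muscle markers, 2 rose, against 11.3% of all genes, and 0 fell in limma (9 higher and 0 lower at an unadjusted p under 0.05). Tumours lay above wild type with no overlap for 14 of the 22, against 27.0% of all genes, and the list median was 0.84, with 4 negative changes. Decorin (Dcn), a matrix protein of fibroblasts, read 9.71 in tumour 16, 10.41 in tumour 18 and 8.82 in tumour 2, against 7.28 in wild type 36 and 6.83 in wild type 62. It rose by 2.60 (SE 0.52, limma adjusted p = 0.0363), and smooth muscle actin (Acta2) rose by 1.22 (SE 0.19, limma adjusted p = 0.0206). The summed linear signal of the 22 markers was 10186, 16962 and 5589 in tumours 16, 18 and 2, and 4467 and 3218 in wild types 36 and 62. Tumour 2 was the lowest tumour for 16 of the 22 markers, as it was for Hoxa5, Hoxa7 and the brightest probe set of Hoxa9. In the other Hoxa9 probe set tumours 18 and 2 both read 7.72. Tumour 2 was also the lowest for 55.8% of the 1395 genes called higher. Tumour 18 had the highest sum and tumour 16 the highest Hoxa9 signal. The smooth muscle markers Myh11 and Des differed by -0.01 and -0.04 and did not pass. The part of connective tissue in the Hoxa values was not tested, and in such bulk samples more cells of a type cannot be told apart from more RNA per cell.

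Markers of other cell types were read in the same way. Of 10 endothelial markers 0 passed in either direction in limma (1 higher at an unadjusted p under 0.05), and the 2 brightest, Plvap and Kdr, differed by 0.04 (SE 0.31) and -0.0006 (SE 0.09). Of 9 enteric neuron and glia markers 0 passed, also at an unadjusted p under 0.05, and the 2 brightest, Sox10 and Gfap, differed by 0.02 and -0.01. Of 14 leukocyte markers 2 fell and 0 rose in limma (1 higher and 4 lower at an unadjusted p under 0.05), namely Ptprc (-1.94, SE 0.13) and Cd3g, part of the T cell receptor (-1.41, SE 0.13). Tumours lay above wild type with no overlap for 3 of the 14, against 27.0% of all genes, and below for 5, against 23.7%. The 3 were the myeloid markers Lyz2 (1.67, limma adjusted p = 0.0502), S100a8 (1.32, limma adjusted p = 0.144) and Itgam (0.10, limma adjusted p = 0.207), and none passed. The myeloid markers Csf1r and Cd68 differed by -0.07 and 0.19, with groups that overlapped. The defining epithelial markers Epcam and Cdh1 had signals of 9.42 or more on all 5 arrays. Of 11 epithelial markers the keratins Krt18 (2.44, SE 0.16) and Krt19 (1.197, SE 0.25) rose and villin (Vil1, -1.26, SE 0.14) fell. At an unadjusted limma p under 0.05, 4 of the 11 were higher and 4 lower. The lowest change in this list was -1.82, in a marker that did not pass.

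**Figure D4:**
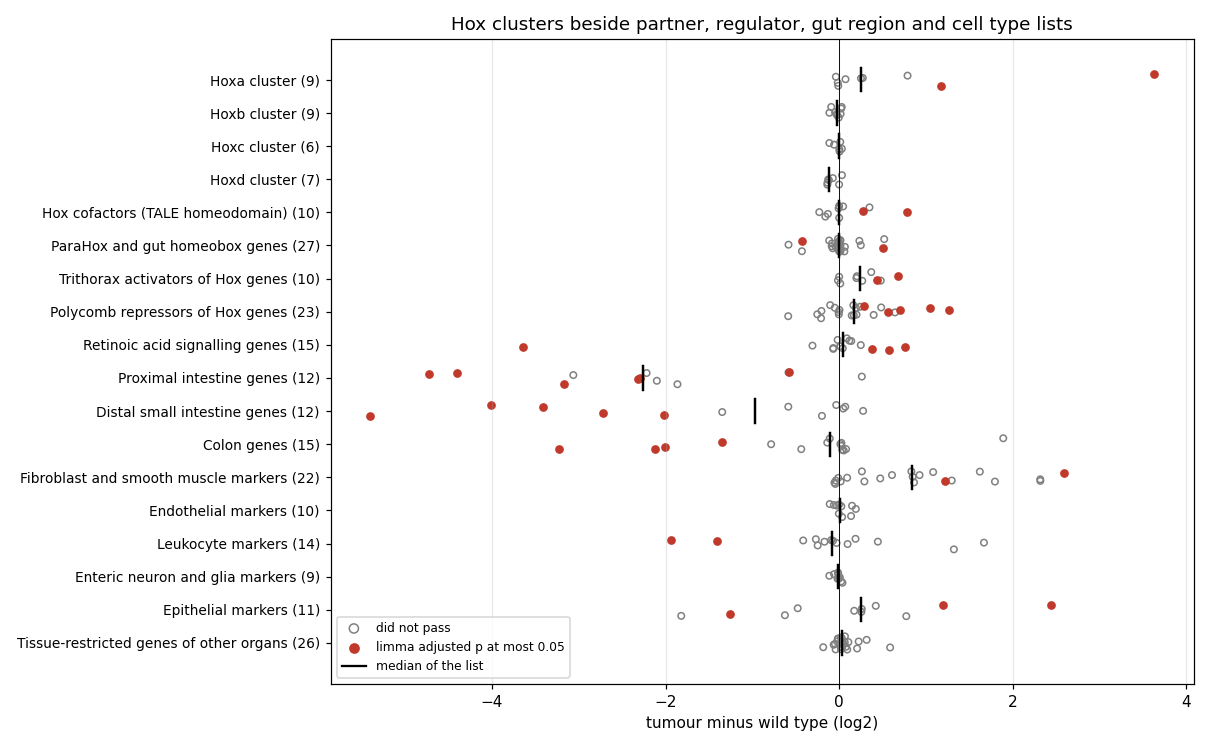
Log2 difference between tumour and wild-type means (horizontal axis) for each gene of the Hox clusters and of the comparison lists (vertical axis, number of measured genes in brackets), filled red where limma's adjusted p was at most 0.05, with a bar at the median of a list. Hoxb, Hoxc and Hoxd lie in a narrow band near 0, as do most genes restricted to other organs, while Hoxa reaches to 3.63 and the fibroblast markers have a median of 0.84.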

How the data were processed

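Expression was measured on 5 Affymetrix arrays. The log2 values of 22690 probe sets were used as the authors deposited them. The submitters' processing notes name the R package affy, while the steps of correction, normalization and summary are not given in the sources used here. Values ran from 3.38 to 14.3, which fits a log2 scale, and array medians of 6.81 to 6.87 were left as they were. The 64 controls were left out. Genes were named through the platform annotation held by GEO, which gave 1 symbol for 20380 probe sets, several for 691 and none for 1555. The 3 probe sets naming several Hox genes were not used as members. Differences were fitted in R 4.3.3 by limma 3.58.1 (lmFit, then eBayes; group was the only term, the residual degrees of freedom were 3 and the prior ones 1.23), two-sided, with Benjamini-Hochberg adjustment over all genes or all probe sets at 0.05, and 95% confidence intervals. The steps were tested on simulated data without tied values, unlike the deposited ones, so that test does not show how reliable the calls here are. All 32 Hox names were accounted for. Values in every array were given for called members and for the brightest member of each cluster, and other members shown this way were chosen after their values were seen. In other lists up to 4 called genes of largest change, or else the 2 brightest, were named, and any further gene named there was chosen after its values were seen. The members and lists were chosen with earlier results of these data known. The number of arrays limits the precision.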

Additional observations from a re-analysis of the deposited data

How the results depend on the processing

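Leaving out 1 array gave between 0 and 3 Hox genes, and between 0 and 3 Hox probe sets, higher in tumours, against 2 of each with all arrays. With probe sets tied within a group also left out, a setting added after the data were seen, the 5 such fits gave 2 or 3, always with Hoxa5 and Hoxa9. The filter for ties also removed 1421579_at, the other Hoxa9 probe set, so the Hoxa9 calls after it do not bear on the choice of probe set. With all arrays it moved the calls over all genes from 2695 of 12393 to 3304 of 9572, so calls were more frequent in general. With 1 wild-type array left, that array is assumed to vary like the tumours. The count of higher Hox genes was 1 (Hoxa5) when the probe set of highest wild-type mean stood for a gene, also added later, and Hoxa9 then differed by 0.16 (limma adjusted p = 0.274). With the mean of all probe sets Hoxa9 differed by 1.89 and kept its call. Hoxa7 was called too, which gave 3 higher genes, under quantile normalization, median centring, the 40th percentile filter, eBayes with trend and robust settings, the mean of all probe sets and without tied probe sets. In each of these settings calls over all genes were more frequent too. Trend and robust settings also called Hoxd12 lower, 1 against 0. The 40th percentile filter, on the mean over 5 arrays, left 10 Hox genes to test, and Hoxa9 passed it only through its tumour signals, so its call there is no support. Leaving out tied probe sets left 18. The same 2 genes were called at 2-fold or more and without probe sets of shared targets. No paired analysis was possible because the tumours came from Apc1638N mice and the normal epithelium from wild-type mice.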
